A study of Homo sapiens with 24 samples.

Results

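The promoters of 49 genes that license replication origins and run the replication fork were examined for H3K4me3, a histone mark of active promoters, in EndoC-βH3 cells. The genes were listed by their function in replication. For each gene, the deposited H3K4me3 regions (hg38) that overlap 2 kb on either side of the start site of any of its protein-coding transcripts were collected, and the region with the highest mean signal was taken as the promoter region. Of the 49 genes, 48 had such a region, and these were 48 distinct regions among the 97545 of the whole table. Of all 19702 protein-coding genes, 14586 had one. The replication regions made up 0.0492% of all regions and held 0.245% of the summed mean signal. Most regions were far weaker than promoter regions in general. The median of the mean signal was 4.40 over all regions and 49.3 over the promoter regions of all coding genes that had one.

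H3K4me3 was profiled by MINT-ChIP, in which chromatin of each sample is barcoded and pooled before immunoprecipitation. The H3K4me3 samples were 4 cultures of non-senescent (control) and 4 of senescent EndoC-βH3 cells, with 500000 cells each. EndoC-βH3 is a single human beta cell line from fetal pancreas, labelled wild type. It was immortalized with hTERT and the SV40 large T antigen, both of which are removed by CreER once 4-hydroxytamoxifen is given, so the control cells still carry them. Senescence was induced by 4-hydroxytamoxifen for 3 weeks, at 1 mM in the sample labels and at 1 μM in the methods. Another 16 samples, of H3K27me3 and H3K9me3, are not analysed here. The only measurement used is the authors' mean of normalized read counts over the samples, with one value per region. It pools both states, so nothing here compares senescent with non-senescent cells. It also has no spread between replicates and no depth per sample, so differences between promoters are given as values and were not tested.

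Replication begins with licensing. The origin recognition complex (ORC) marks origins, and CDC6 and CDT1 load the ring-shaped MCM helicase onto them in G1, while geminin (GMNN) blocks reloading. In S phase the CDC7-DBF4 kinase turns the helicase on with CDC45 and the GINS complex. Polymerases, the sliding clamp PCNA, its loader RFC and the single-strand binder RPA then work at the fork. Many of these genes are transcribed under E2F factors, which the retinoblastoma protein holds in check in cells that do not divide. The large T antigen inactivates that protein.

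The promoter sequences of these genes often held E2F-type motifs next to the start site. From 250 bases before to 50 after the RefSeq start (GRCh38.p14), the letters TTTGGCGC, TTTCCCGC, TTTGCCGC and TTTCGCGC were searched on both strands. RefSeq sequences were matched for 43 of the 49 genes by symbol, and POLD3, MCM4, MCM5, GINS4, RPA2 and RPA3 were not matched. An E2F-type motif was found in 18 of the 43 (41.9%), against 597 of 11656 other coding promoters with a region (5.12%). The 43 and the 18 include CDT1, which has no region. Of all other coding promoters with a sequence, with or without a region, 668 of 15264 (4.38%) had the motif. Among the other promoters in the upper 3 of 10 equal classes of mean signal the share was 6.23%. Promoters with at least 2 motifs numbered 4 of 43 (9.30%), against 0.240% of the others, and these 4 were MCM2, MCM3, MCM6 and MCM7. In MCM2 and MCM6 the motifs come as pairs that overlap on opposite strands. A motif match is a description of the letters and not of binding.

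The 4 promoters below are those of highest H3K4me3 density that hold an E2F-type motif and had a sequence that may be shown. Each runs 5′ to 3′ on the strand of its gene with the motif in capitals, and each lay wholly inside its H3K4me3 region. CLSPN is at chr1:35769929-35770228 (minus strand), MCM3 at chr6:52284693-52284992 (minus strand), RFC3 at chr13:33817899-33818198 (plus strand) and CDC6 at chr17:40287629-40287928 (plus strand).
CLSPN: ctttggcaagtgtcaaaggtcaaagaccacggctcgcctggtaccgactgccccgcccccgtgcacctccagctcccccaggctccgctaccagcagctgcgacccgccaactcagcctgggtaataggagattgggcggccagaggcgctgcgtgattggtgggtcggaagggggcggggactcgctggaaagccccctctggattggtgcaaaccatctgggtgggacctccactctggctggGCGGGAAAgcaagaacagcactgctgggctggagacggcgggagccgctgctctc
MCM3: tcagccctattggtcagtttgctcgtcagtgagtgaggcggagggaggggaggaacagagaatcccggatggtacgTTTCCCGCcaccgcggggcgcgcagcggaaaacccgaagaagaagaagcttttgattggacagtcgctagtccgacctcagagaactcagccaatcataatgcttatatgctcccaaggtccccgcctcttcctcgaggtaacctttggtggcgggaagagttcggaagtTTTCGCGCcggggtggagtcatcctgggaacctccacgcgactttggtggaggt
RFC3: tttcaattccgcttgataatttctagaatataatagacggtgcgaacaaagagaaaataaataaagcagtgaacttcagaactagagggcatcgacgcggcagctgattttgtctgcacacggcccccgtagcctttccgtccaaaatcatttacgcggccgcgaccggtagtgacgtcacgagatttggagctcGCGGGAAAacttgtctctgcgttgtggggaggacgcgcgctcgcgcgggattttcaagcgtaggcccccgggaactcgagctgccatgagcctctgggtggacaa
CDC6: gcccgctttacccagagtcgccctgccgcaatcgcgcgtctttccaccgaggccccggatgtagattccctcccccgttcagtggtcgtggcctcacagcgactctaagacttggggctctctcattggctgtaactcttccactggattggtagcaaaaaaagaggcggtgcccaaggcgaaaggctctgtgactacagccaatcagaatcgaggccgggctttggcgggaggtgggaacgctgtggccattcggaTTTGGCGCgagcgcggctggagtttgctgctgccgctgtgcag
With the start base counted as 0, the motif of CLSPN begins at -5 and that of RFC3 at -55, both as TTTCCCGC on the opposite strand. In CDC6 the letters TTTGGCGC lie just after the start. MCM3 has a motif far upstream and another that spans the start.

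Stretches of 30 bases show the sites of the helicase genes MCM2 and MCM6 and of the loader CDT1, a choice made after the matches were seen. MCM2 is at chr3:127598404-127598433 (plus strand), the far and near sites of MCM6 are at chr2:135876575-135876604 and chr2:135876513-135876542 (minus strand), and CDT1 is at chr16:88803743-88803772 (plus strand).
MCM2: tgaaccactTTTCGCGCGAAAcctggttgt
MCM6, far site: ggctttgcaTTTGGCGCGAAAtccctttcc
MCM6, near site: ttggtcaggTTTGGCGCGAAAtctccagct
CDT1: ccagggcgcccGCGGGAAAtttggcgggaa
In MCM2 and at both MCM6 sites the capitals are 12 letters in which 1 motif on each strand overlaps the other. The MCM2 pair runs from 2 to 13 bases after the start. The MCM6 pairs begin at -152 and -90.

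Of the 4 helicase genes with a sequence, all 4 (MCM2, MCM3, MCM6 and MCM7) had an E2F-type motif. So did 2 of the 3 loading genes (CDC6 and CDT1), 3 of 7 activation genes (GINS1, GINS2 and GINS3) and 3 of 7 polymerase genes (POLA2, POLE and POLE2). It was found in 2 of 6 clamp and loader genes (PCNA and RFC3) and in 1 of 6 ORC genes (ORC3). LIG1, CLSPN and UHRF1 had it as well. Of the 24 motifs in these promoters, 16 (66.7%) touched the 50 bases on either side of the start, against 219 of 625 motifs (35.0%) in the other promoters with a region. The commonest word was TTTCCCGC, found once in each of 11 genes, while TTTGCCGC was not found.

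The CCAAT box, the binding site of NF-Y, was found in 25 of the 43 promoters (58.1%) and in 36.3% of the other promoters with a region. Both motifs stood together in 11 (25.6%), against 2.17% of the others. These 11 were CDC6, CLSPN, GINS1, GINS2, MCM3, MCM6, MCM7, ORC3, PCNA, POLE and UHRF1. In 11 promoters (25.6%), among them GMNN, CDC7, DBF4 and FEN1, neither was found in this window, against 60.8% of the others. The GC box GGGCGG, which SP factors bind, was found in 32 (74.4%), against 68.2% of the others. The letters TTTGAA of the cell cycle homology region were found in 2 (DBF4 and ASF1B, 4.65%), against 9.99%.

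**Figure D1:**
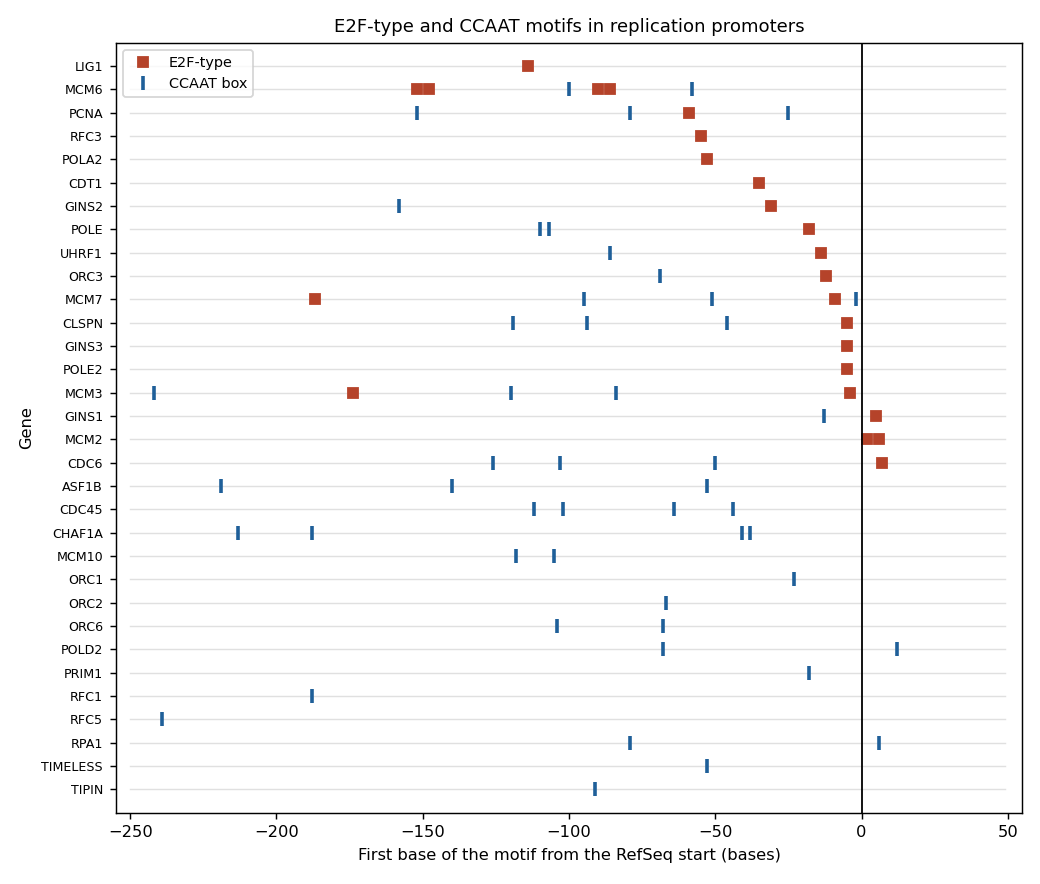
Positions of E2F-type motifs (squares) and CCAAT boxes (bars) on either strand in the replication promoters that hold at least one of them. The x axis is the first base of the motif in bases from the RefSeq start, and the y axis lists genes; 16 of the 24 E2F-type motifs touch the 50 bases on either side of the start, and the other 8 are those of LIG1, PCNA and MCM6 and the far sites of MCM3 and MCM7.

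H3K4me3 was widespread at these promoters. The 48 regions had a median of 72.3 mean normalized counts, with quartiles of 48.9 and 102 and a range from 7.01 at CHAF1B to 168 at ORC6. The 14538 other promoters had a median of 49.3, with quartiles of 21.6 and 88.5. Of the 48, 36 (75%) lay above the median of all promoters. Wide regions collect more reads, so levels are compared between genes per length, as density in mean normalized counts per kb of region. The median density was 22.3 at replication promoters (range 4.83 to 40.7) and 19.0 at the others. In density 34 of the 48 (70.8%) lay above the median of all promoters, 16 (33.3%) lay above the upper quartile and 2 (4.17%) below the lower quartile. Promoters with a GC content like that of these regions had higher densities than promoters at large. Against the median of 7243 other promoters between the lower and upper quartile of the replication regions' GC content (44.8 to 55.02%), 25 of the 48 (52.1%) were higher in density and 26 (54.2%) in mean signal.

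**Figure D2:**
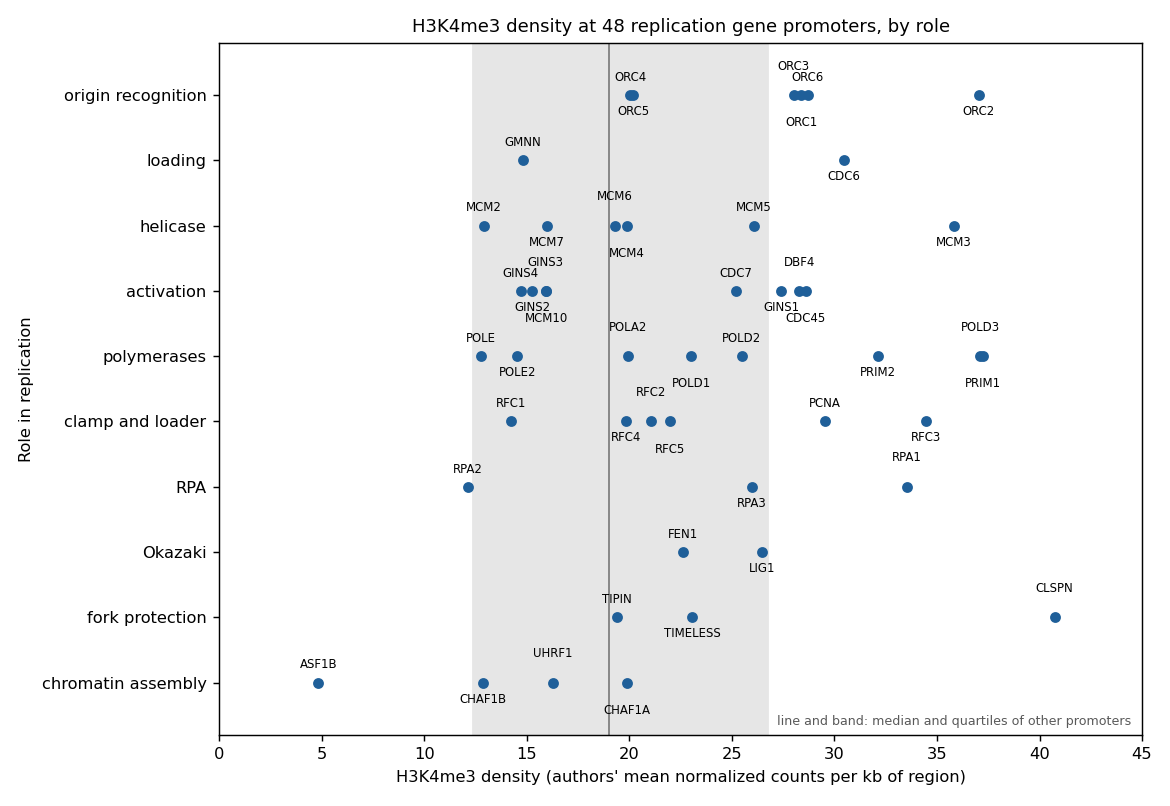
H3K4me3 density of each of the 48 replication promoters (points), in the authors' mean normalized counts per kb of region, by the role of the gene. The line and the grey band give the median and quartiles of the 14538 other promoters; ORC genes all lie above the line, and ASF1B, at 4.83, and RPA2, at 12.1, lie below the band.

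All 6 ORC promoters lay above the median density of all promoters, and the group had a median density of 28.2 and a median of 118 mean normalized counts. ORC2, a core subunit, was the highest of them at a density of 37.0, from 148 mean normalized counts over 3999 bp at chr2:200961445-200965444. ORC4 was the lowest at 20.04. ORC1, the subunit whose protein rises and falls in the cell cycle, stood at 28.4. ORC6 had the widest region of all 48, with 5853 bp and a density of 28.7. The spread within the complex was 1.85-fold in density. The regions of ORC1, ORC3, ORC4 and ORC6 are each shared with a gene on the opposite strand. Their signal and width cannot be assigned to the ORC gene alone.

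The loading genes differed from one another. CDC6, the ATPase that brings the helicase to the origin, had a density of 30.5 from a narrow region of 1434 bp (chr17:40287592-40289026) with 43.7 mean normalized counts. GMNN, the inhibitor of reloading, had 76.7 mean normalized counts spread over 5185 bp, which is a density of 14.8. CDT1 had no region within 2 kb of a start site. The nearest regions to its canonical start (chromosome 16, 88803789) lay 7175 bp downstream and 95903 bp upstream, with mean normalized counts of 12.1 and 12.4.

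The helicase genes MCM2 to MCM7 ranged 2.78-fold in density, although their proteins form one ring. MCM3 had a density of 35.8 (126 mean normalized counts, chr6:52282670-52286192) and MCM5 one of 26.1. MCM4 at 19.9 and MCM6 at 19.3 stood near the median of all promoters. MCM7 at 16.0 and MCM2 at 12.9 were below it. The MCM7 and MCM2 regions were wide, at 5228 and 4641 bp, and their mean normalized counts of 83.6 and 59.9 were above the median of all promoters. For these 2 genes the side of the median therefore depends on whether width is taken into account.

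Among genes that turn the helicase on, CDC45 (28.6), the kinase activator DBF4 (28.3), GINS1 (27.4) and the kinase CDC7 (25.2) had the higher densities. MCM10 (16.0), GINS3 (15.9), GINS2 (15.3) and GINS4 (14.7) formed a lower set, with no gene of this role between 16.0 and 25.2. The subunits of the GINS complex thus lay on both sides of the median of all promoters.

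The polymerase genes reached from 12.7 to 37.3 in density. The primase subunits PRIM1 (37.3) and PRIM2 (32.1) and the polymerase delta subunit POLD3 (37.1) were high. POLD2 stood at 25.5, the delta catalytic subunit POLD1 at 23.0 and POLA2 at 19.95. Of the polymerase epsilon genes, POLE2 had a density of 14.5 and POLE, the catalytic subunit, one of 12.7. The other subunits of this enzyme, which are outside the list of 49, differed from each other, with 24.6 at POLE3 and 10.9 at POLE4. The POLE value comes from a region of 592 bp with 7.54 mean normalized counts that lies 1846 bp from a start site.

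PCNA, the sliding clamp, had a density of 29.5 from 133 mean normalized counts over 4499 bp (chr20:5117023-5121522). Of its loader, RFC3 was the highest at 34.4, RFC5, RFC2 and RFC4 lay between 19.9 and 22.0, and the large subunit RFC1 was the lowest at 14.2. The RPA genes differed 2.77-fold, from 33.5 at RPA1 to 26.0 at RPA3 and 12.1 at RPA2. The flap nuclease FEN1 and the ligase LIG1, which finish Okazaki fragments, had densities of 22.6 and 26.5, which differ 1.17-fold. CLSPN, which encodes the checkpoint adaptor claspin, had the highest density of all 48, at 40.7 from 74.9 mean normalized counts over 1838 bp (chr1:35768622-35770460). Its fork protection partners TIMELESS and TIPIN stood at 23.1 and 19.4.

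Genes that assemble chromatin behind the fork were the lowest group, with a median density of 14.6 and a median of 12.7 mean normalized counts. CHAF1A, the large subunit of chromatin assembly factor 1, had a density of 19.9, UHRF1, which keeps DNA methylation through replication, 16.3, and CHAF1B 12.8. The histone chaperone gene ASF1B had the lowest density of all 48, at 4.83 from 9.31 mean normalized counts over 1926 bp. In this group 1 of 4 promoters lay above the median density of all promoters. The values of ASF1B, CHAF1B and UHRF1 come from regions that do not cover the canonical start of the gene.

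Beside promoters of similar mean signal, the replication regions were close to the median in width and density. All promoters were divided into 10 equal classes of mean signal, and each replication promoter was set beside the median of the others in its own class. In width 26 of 48 were above that median, with a median ratio of 1.02 (quartiles 0.882 and 1.15). In density 24 of 48 were above it. In the GC content of the region 19 of 48 were above it. The observed over expected CpG content was above it at 29 of 48, with a median ratio of 1.04. Few replication promoters lay at the low end of the range. The lowest 3 classes held 5 of the 48 (10.4%) and 30.1% of the others. These 5 were CHAF1B, ASF1B, POLE, UHRF1 and POLE2.

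**Figure D3:**
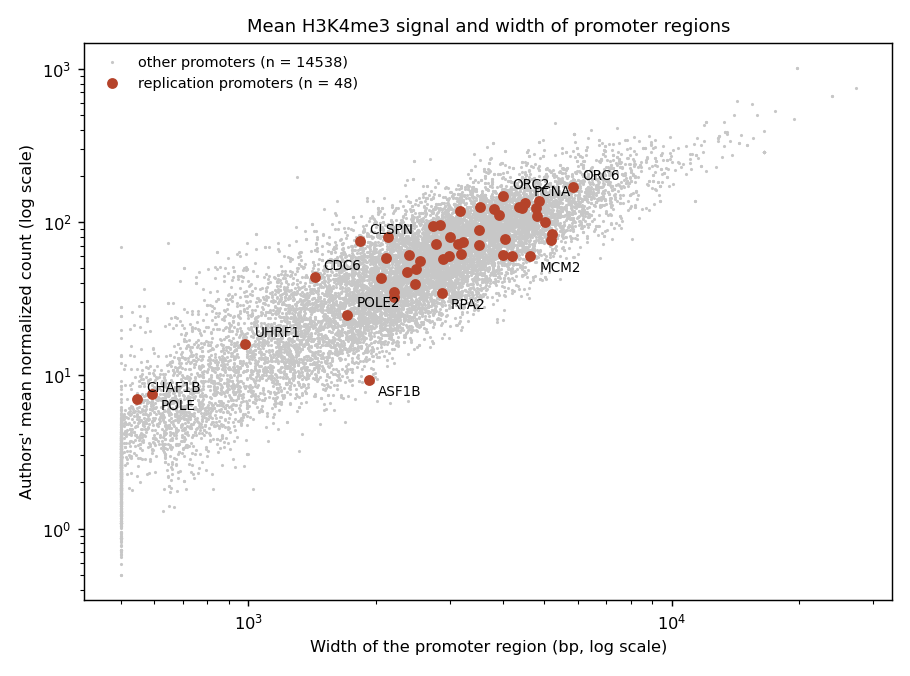
Authors' mean normalized count (y, log scale) against the width of the promoter region in bp (x, log scale) for the 48 replication promoters and 14538 others (grey). The replication promoters lie along the grey cloud, with CHAF1B, POLE and UHRF1 at its narrow end and ASF1B at its lower edge.

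The canonical start site lay inside the promoter region at 42 of the 48 genes (87.5%), against 66.1% of the other promoters. At these 42 the region reached a median of 1043 bp before and 1908 bp after the start. It reached farther downstream than upstream at 36 of 42 (85.7%), against 71.7% of 9614 others. The longer arm differed between regions with and without a divergent neighbour. Divergent partners were coding genes on the other strand with a canonical start within 1 kb upstream of the gene's own. One was present for 12 of the 48 (25%) and for 12.4% of the other promoters. With such a partner 5 of 11 regions were longer downstream, and without one 31 of 31 were, although at RFC4 the arms were 1182 and 1185 bp. Among the other promoters, 621 of 1509 (41.2%) with a partner were longer downstream, and 77.4% of those without one were. The replication regions with a partner had a median width of 4429 bp and those without one of 2862 bp. Among the other promoters these widths were 3557 and 2816 bp.

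The partners were UFD1 for CDC45, PRPF38A for ORC1, RARS2 for ORC3, MBD5 for ORC4, VPS35 for ORC6, PRKDC for MCM4, AP4M1 for MCM7 and SLC25A40 for DBF4. FEN1 had TMEM258, LIG1 had ZSWIM9, RPA1 had SMYD4 and POLE had PXMP2. The distance between the starts ran from 103 bp (RPA1) to 805 bp (MCM4). In all 12 cases the partner had the same region as its promoter, so the signal of these regions cannot be assigned to one gene of the pair. Another 5 genes shared a region with a gene that is no such partner, namely PRIM1 (with HSD17B6), RPA3 (UMAD1), CHAF1A (SH3GL1), TIPIN (MAP2K1) and MCM2 (TPRA1). The canonical starts of RPA3 and TIPIN lie far from the shared region, so a partner at that region was not looked for. In all, 17 of 48 (35.4%) had a shared region, against 23.1% of the others. Without them, 20 of the other 31 (64.5%) lay above the median density of all promoters.

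**Figure D4:**
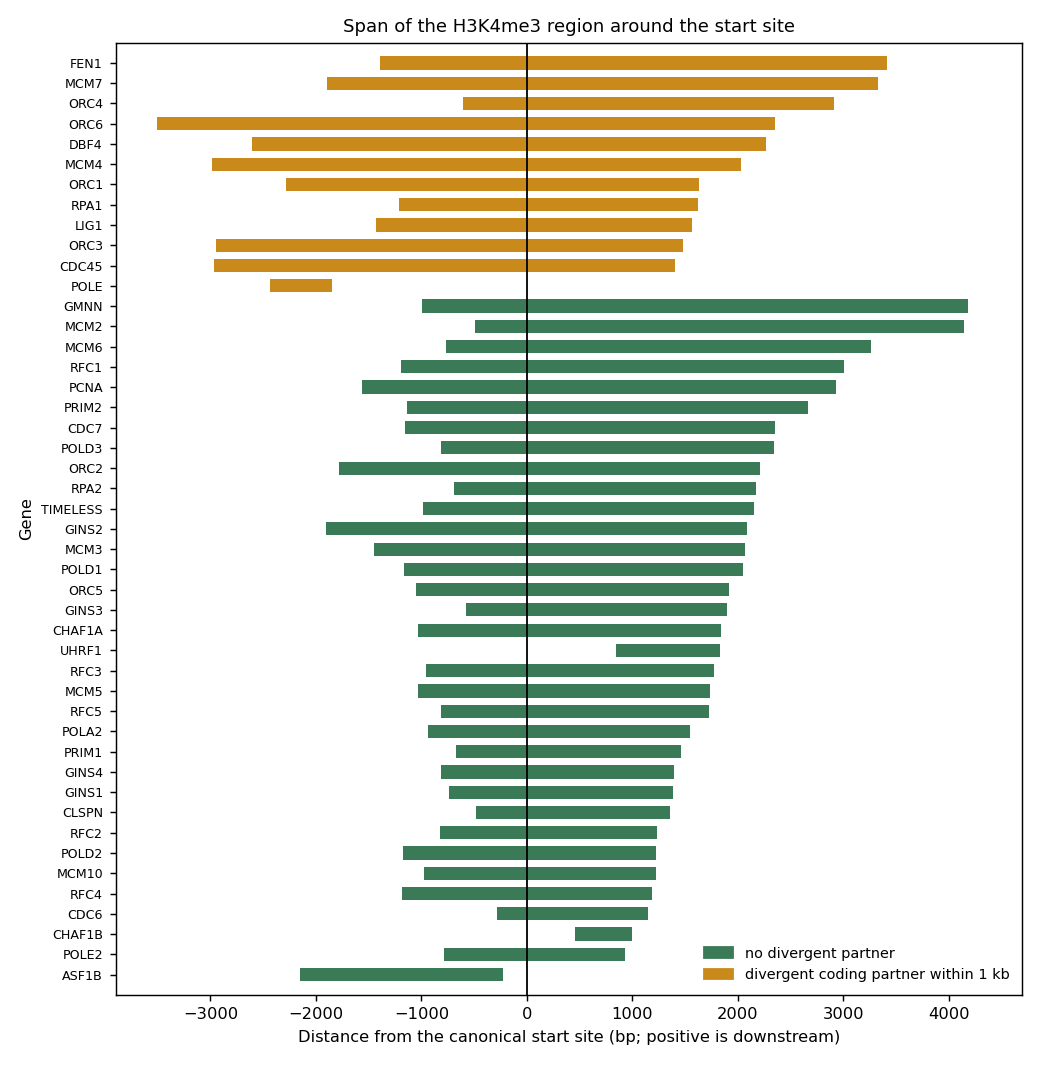
Span of the promoter region around the canonical start site for 46 genes, in bp (x, positive is downstream), by gene (y), with genes that have a divergent coding partner in orange and the others in green. RPA3 and TIPIN are left out because their regions lie at other start sites; green bars that cross the start are longer on the right, and the bars of POLE, ASF1B, CHAF1B and UHRF1 do not reach it.

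Most of the starts that no region covered were rich in GC, while other weak regions varied in GC content. In the 1 kb about the canonical start, GC content was 77.9% at POLE, 73.6% at CDT1, 71.9% at UHRF1, 68.6% at ASF1B and 63.0% at CHAF1B, and no region covered these starts. The median over all 49 genes was 60.6%. RPA3 was the other gene without a covered start, at 30.7%, since its canonical start lies far from its region. LIG1, at 70.8%, was covered. Other promoters with a density below that of UHRF1 (16.3) had covered starts on both sides of the median of the 49 genes. Their GC content was 66.9% at MCM7, 66.6% at GINS2, 62.6% at GINS4, 61% at POLE2 and 60.6% at MCM2. It was 60% at RPA2, 57.7% at GMNN, 57.6% at RFC1, 56.6% at MCM10 and 55.6% at GINS3. The other promoters with a region were divided into 5 equal classes of GC content. From the lowest class to the highest, the start was covered at 75.4%, 89.3%, 86.9%, 74.6% and 32.5% of them, so coverage was highest in the second class (56 to 61.2%) and lowest in the highest class (70.1 to 87%). Their median density was 20.2, 22.1, 19.3, 17.4 and 16.6 mean normalized counts per kb in the same order. CHAF1B fell in the third class and ASF1B in the fourth. The part of GC content in the low values of POLE, CDT1, UHRF1, ASF1B and CHAF1B was not tested. The median GC content at the start was 61.4% over all other coding genes, which all 5 exceeded, and 63.3% over those with a region, which CHAF1B did not.

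**Figure D5:**
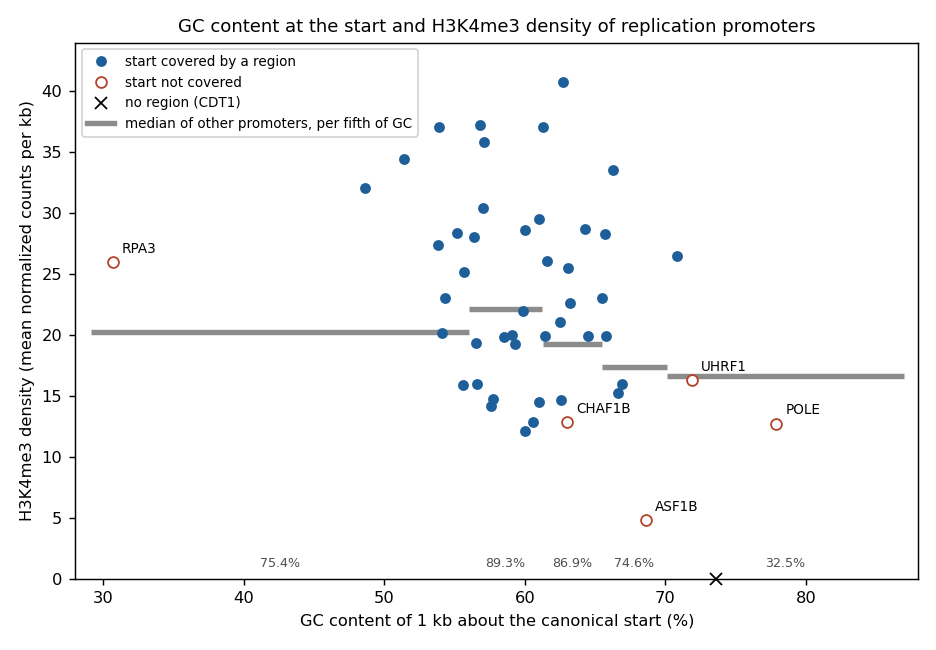
H3K4me3 density of the replication promoters (y, mean normalized counts per kb) against the GC content of 1 kb about the canonical start (x, %), filled where a region covers the start; the cross at 0 marks CDT1, which has no region, and for TIPIN the density is that of its strongest region, not of the one that covers its start. Grey lines give the median density of other promoters in 5 equal classes of GC content and the percentages the share of them with a covered start, which is 32.5% in the highest class.

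Densities overlapped widely between promoters with and without an E2F-type motif. The 17 promoters with a motif and a region had a median density of 19.95, with quartiles of 15.9 and 29.5. The 25 with a sequence but no motif had a median of 22.6, with quartiles of 19.9 and 28.4. Both groups reached from low to high values, from 12.7 (POLE) to 40.7 (CLSPN) with the motif and from 4.83 (ASF1B) to 37.3 (PRIM1) without it.

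Another 20 replication genes outside the list had a region in every case. Their median was 56.9 mean normalized counts and 22.6 in density, and 13 of 20 lay above the median density of all promoters. The highest was MCM8, a helicase of recombination, at 48.9 per kb, and the lowest was RECQL4, a helicase needed for initiation, at 10.1 per kb.

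The cell type was checked at marker promoters. Of 13 beta cell markers 12 had a region, with a median of 231 mean normalized counts and the highest at ISL1 (588), and MAFA had none. INS and IAPP were low, at 24.7 and 6.94 mean normalized counts. Among markers of other pancreatic and non-endocrine cells, 12 with a region had a median of 11.1, a range from 1.12 to 61.8 and the highest at IRX2, while PPY and PTPRC had no region.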

How the data were processed

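H3K4me3 MINT-ChIP was deposited as 1 table of regions. The authors used Bowtie2 for alignment to hg38, samtools for the alignments, HOMER for peak calling and DESeq2 for the comparison of states. The signal used here is the mean normalized count per region that the authors deposited, a mean over samples of counts scaled by DESeq2 and not divided by width. Its other 5 columns hold the authors' comparison of the states (fold change, standard error, statistic and p-values) and were not used, so no model was fitted. How peaks were merged, how reads were counted and whether duplicates were removed is not given in the sources used here. Depth per sample is unknown.

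Start sites came from GENCODE release 44 and sequence from hg38. A region's width is its end minus its start. A gene's canonical start is that of its Ensembl canonical transcript. All 43 RefSeq promoters used are identical to hg38. All genes were placed in 10 role groups, and those of highest and lowest density, without a region, with several regions or with a shared region were named. The members and lists were chosen with earlier results of these data known. The choice of regions and the motif search were tested on simulated data. Software was samtools 1.23.1 and Python 3.11.15, with pysam 0.24.0, pandas 2.3.3, matplotlib 3.10.9 and numpy 2.4.6. Windows, start sites, the choice of region, the background and the motifs were varied.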

Additional observations from a re-analysis of the deposited data

How the results depend on the processing

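The number of promoters above the median density was 34 of 48. It was between 25 and 34 under windows of 1 or 5 kb, canonical starts, the region nearest the start, distinct regions, a background of like GC content, regions of 500 bp left out and, chosen after seeing the data, all transcripts of coding genes or starts inside the region. With the genes that share a region left out, also chosen afterwards, it was 20 of 31. Fewer genes are counted there, and the share also fell, from 70.8% to 64.5%. The number above the median in mean signal (36) was between 26 and 37. The lowest values of both, 25 of 48 and 26 of 48, came from the background of like GC content, and for density also from starts inside the region (25 of 42). A window of 1 kb and canonical starts alone each left 47 of 49 genes with a region. The E2F-type motif was found in 22 of 43 promoters (51.2%, others 12.6%) within 500 bases of the start, and a core of 6 letters, either GGCGGG or else GGCGCG or else TTGGCG, in 40 of 43 (93.0%, others 78.1%). The median width was 3068 bp with the nearest region as well, and only CHAF1B and POLE then took another region. No paired analysis was possible because the values are means over samples. For the same reason no replicate could be left out.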

Other observations

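Several genes had more than 1 H3K4me3 region within 2 kb of a start site. Of the 48, 16 (33.3%) had more than 1 region, against 37.1% of the other promoters. This does not count start sites, since some second regions were weak and covered no start. Examples are MCM2 (0.577 mean normalized counts, 769 bp from a start) and RFC4 (0.726, 1824 bp). PCNA had 3 regions on chromosome 20, and the one from 5127392 to 5129265, which is also the strongest region of CDS2, was denser (38.2 mean normalized counts per kb) than the region of the canonical start (29.5). GINS1 also had 3, of which the region from 25391033 to 25391855 on chromosome 20, the strongest of ABHD12, had a density of 31.9, against 27.4 at the canonical start. POLD3 had a second region on chromosome 11, from 74492109 to 74494890, which is the strongest of LIPT2, with a density of 14.6 against 37.1. The strongest region of TIPIN was the one it shares with MAP2K1, while its canonical start lay in another region on chromosome 15 (66355577 to 66357610) with 50.7 mean normalized counts and a density of 24.9. ORC4 had adjoining regions with densities of 20.04 and 17.5. ASF1B had regions on both sides of its start, with 9.31 and 8.93 mean normalized counts and none over the start itself. POLE and CHAF1B each had 2 weak regions on either side of their starts, with 7.54 and 6.24 at POLE and 7.01 and 4.40 at CHAF1B.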
